A study of Canis lupus familiaris with 36 samples.

Results

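After 72 h with the PI3K inhibitor AS-605240 (AS), CLBL-1 lymphoma cells held less mRNA of the serine synthesis enzyme PSAT1, the kinase adaptor TRIB1, the cytokines IL23A, IL5 and TNF and the transcription factor MYC, and more mRNA of the cytoskeletal linker PLEC and the translation factor EIF4G2, than cells kept in DMSO for the same time. The calls of IL5, which had few reads, and of TNF were lost when some single libraries were left out. The DMSO cultures themselves changed between 24 h and 72 h. PSAT1 was lower with AS at 72 h than with DMSO at 48 h too, though by less than against DMSO at 72 h. TRIB1, IL23A, MYC and PLEC did not pass between AS at 72 h and DMSO at 48 h, which does not show equal levels. The comparison of AS and DMSO at 72 h rests on 6 of the 36 libraries of the series, 3 of AS and 3 of DMSO. They were chosen by treatment and incubation time alone, and the libraries of replicate 1, 2 or 3 in both groups come from the same cell passage. CLBL-1 is a cell line grown from a diffuse large B-cell lymphoma of a dog. All groups used here are cultures of this line, at 24, 48 or 72 h, and their treatments were DMSO, 5 µM AS, 1 µM of the BTK inhibitor ibrutinib (Ibr) or both inhibitors together (Ibr + AS). The DMSO cultures held as much solvent as the combination, and whether AS alone was made up to the same share is not given in the sources used here. The replicates are passages of 1 line from 1 dog. With passage as a term, p-values rest on the spread left between libraries after group and passage, estimated over the 35 libraries of the fit. They do not measure the spread between animals.

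PI3K enzymes phosphorylate membrane lipids after a receptor has been engaged and so recruit AKT, which acts on mTOR complexes, FOXO transcription factors and cell metabolism. In B cells the B-cell receptor, through SYK, BTK and co-receptors, is a main input to this pathway, and lymphoma cells often draw survival and growth signals from it. AS-605240 is an ATP-competitive inhibitor that acts most strongly on the gamma form of the PI3K catalytic subunit, which leukocytes carry.

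The 6 libraries held 10646809 to 14581090 counted reads each (median 11953345.5), and those of the series 9941919 to 14703839. The 50 most abundant genes took 17.5% to 19.4% of the reads, and the TMM scaling factors lay between 0.999 and 1.03. AS replicate 1 and DMSO replicate 2 stood apart within their groups: the chi-square per degree of freedom of their read counts against the other libraries of the group was 10.3 and 10.7 for the former and 13.7 and 10.4 for the latter, against 3.99 and 3.53 between the remaining pairs. Without them, 418 and 357 differentially expressed genes were called, against 409 with all 6. Of the B-cell markers, TNFRSF13C, the BAFF receptor, was detected at 99.7 to 117 CPM (reads scaled to the TMM-adjusted library size) with AS and at 69.0 to 81.5 CPM with DMSO, while NFAM1 had 0 reads; the other 6 of the 8 listed had no symbol pair. Summed T and NK cell markers (4 of 6 paired, IFNG and IL2RB at 0 reads) stayed between 0 and 0.365 CPM. The myeloid markers (2 of 5 paired, TREM2 at 0 reads) came down to LYZ alone, at 81.0 to 94.4 CPM with AS and 88.0 to 115 CPM with DMSO. The summed stromal or epithelial ones (5 of 7 paired, GRHL2 at 0 reads) reached 12.3 to 20.5 CPM and 14.6 to 17.7 CPM. Nearly all of that sum was COL11A2, with a mean log2 CPM of 3.96. COL14A1, TG and ESR1 lay at -3.42, -2.35 and -3.28. Of these marker genes, 0 were differentially expressed. In bulk RNA, fewer cells of a type and less RNA per cell cannot be told apart.

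A differentially expressed gene (DEG) was called where edgeR's quasi-likelihood test with passage as a term gave a Benjamini-Hochberg adjusted p no higher than 0.05 and the log2 fold change (log2 FC) lay above 1 or below -1. Of 18670 genes tested, 409 were DEGs (2.19%), 133 higher with AS (0.712%) and 276 lower (1.48%). The adjusted p alone was passed by 2465 genes (13.2%), 1270 higher (6.80%) and 1195 lower (6.40%), and "rose" and "fell" are used for these. The median log2 FC was 1.43 over the DEGs that were higher, -1.52 over those that were lower and 0.0029 over all genes tested. A log2 FC above 2 or below -2 was fitted for 102 DEGs, 22 higher and 80 lower. The difference had the same sign in all 3 passages for 407 DEGs, and the 3 AS libraries did not overlap the 3 DMSO libraries for 401; over all genes tested, 4956 (26.5%) did not overlap. A mean of at least 1 CPM over the 6 libraries was reached by 278 DEGs, 85 higher and 193 lower. Among the lower DEGs, 52 had at most 3 reads in each AS library, and among the higher ones 18 had at most 3 in each DMSO library, so that fitted fold changes of these genes are not bounds.

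**Figure D1:**
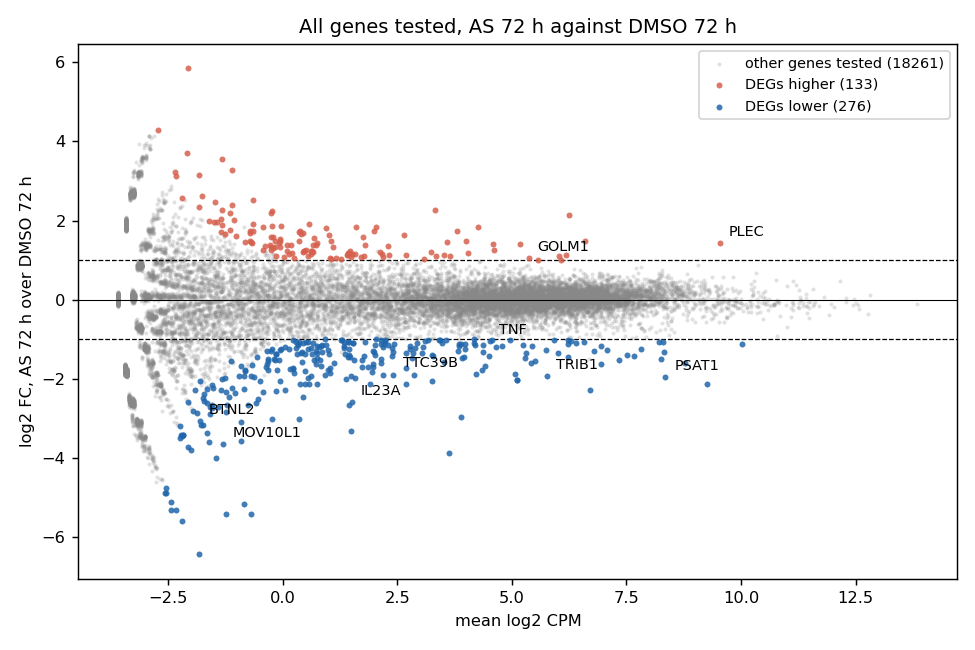
Each point is a gene tested, with its mean log2 CPM on the x axis and its log2 FC of AS 72 h over DMSO 72 h on the y axis. DEGs higher with AS (133, red) and lower (276, blue) lie beyond the dashed lines at a log2 FC of 1 and -1. The named points include PLEC above and PSAT1, TRIB1, TTC39B and IL23A below.

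A symbol could be given to 1068 of the tested identifiers, through pairs printed in the tables of the study, which were drawn from its own results on these samples. Of these genes, 24 were DEGs, 8 higher and 16 lower, 130 rose and 106 fell, and their median log2 FC was 0.046. PSAT1, phosphoserine aminotransferase, had 157, 172 and 169 CPM in the AS libraries of replicates 1, 2 and 3 and 575, 661 and 689 CPM in the DMSO libraries. Each AS library was thus far below each DMSO library, at a log2 FC of -1.95 ± 0.092 (SE, adjusted p = 7.82e-38). TRIB1, a pseudokinase that binds ubiquitin ligase and MEK partners, had 30.5, 27.6 and 25.7 CPM with AS and 106, 109 and 105 CPM with DMSO (log2 FC -1.94 ± 0.23 SE, adjusted p = 2.56e-06). The within-passage differences of TRIB1 were -1.79, -1.97 and -2.02 on the log2 scale and differed little between passages.

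Genes of secreted factors were among the DEGs that were lower with AS. Not all cytokine genes fell: LTA did not pass (mean log2 CPM 5.69, log2 FC 0.057, adjusted p = 0.846). IL23A, the p19 subunit of interleukin 23, had 1.10, 1.07 and 1.2 CPM with AS and 5.00, 8.56 and 6.93 CPM with DMSO (log2 FC -2.58 ± 0.27 SE, adjusted p = 7.73e-14), and the DMSO libraries spread more than the AS libraries. TNF, an inflammatory cytokine, had 14.5, 17.6 and 16.2 CPM and 34, 33.6 and 30.6 CPM (log2 FC -1.04 ± 0.29 SE, adjusted p = 0.016). TNF lay near the fold limit, and the call was lost without AS 72 h replicate 2 (log2 FC -1.06, adjusted p = 0.0521), without AS 72 h replicate 3 (log2 FC -0.99, adjusted p = 0.0743) and without DMSO 72 h replicate 1 (log2 FC -0.89, adjusted p = 0.0919). IL5, an eosinophil growth factor, was at 0.548, 0.493 and 0.478 CPM and 1.07, 1.22 and 1.69 CPM (log2 FC -1.37, adjusted p = 0.0174). Its reads were few, 6, 6 and 6 with AS and 16, 13 and 21 with DMSO, and the call was lost without AS 72 h replicate 2 (adjusted p = 0.0568), without AS 72 h replicate 3 (adjusted p = 0.101) and without DMSO 72 h replicate 3 (adjusted p = 0.117). SERPINB2, an inhibitor of plasminogen activators, was at 0.913, 0.903 and 1.12 CPM and 2.33, 3.39 and 2.90 CPM (log2 FC -1.53, adjusted p = 3.74e-05).

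The remaining DEGs with a symbol that were lower have various roles. TTC39B, a regulator of lipid metabolism, was at 2.65, 2.71 and 2.79 CPM with AS and 10.1, 10.3 and 10.1 CPM with DMSO, a narrow range in both groups (log2 FC -1.89 ± 0.19 SE, adjusted p = 3.12e-14). DEPTOR, an inhibitory subunit of mTOR complexes, was at 1.00, 1.07 and 1.2 CPM and 4.27, 2.82 and 3.47 CPM (log2 FC -1.72 ± 0.29 SE, adjusted p = 2.64e-06). MYO1A, a membrane-bound myosin, was at 2.65, 1.97 and 1.83 CPM and 6.94, 6.58 and 7.34 CPM (log2 FC -1.70, adjusted p = 5.48e-09). None of these 3 overlapped between the groups. ATP8B1, a phospholipid flippase, was at 17.4, 18.1 and 14.4 CPM and 39.6, 33.4 and 40.8 CPM (log2 FC -1.19, adjusted p = 9.20e-05). UST, a sulfotransferase of dermatan and chondroitin chains, was at 10.7, 9.44 and 9.41 CPM and 22.7, 21 and 19.8 CPM (log2 FC -1.11, adjusted p = 4.12e-10). ALDH8A1, an aldehyde dehydrogenase, had a log2 FC of -1.31 (adjusted p = 3.81e-06), SNTB1, a syntrophin of the dystrophin complex, of -1.12 (adjusted p = 1.97e-06) and TRPS1, a GATA-type repressor, of -1.18 (adjusted p = 0.000648). In TRPS1 DMSO replicate 3 (4.27, 4.42 and 2.58 CPM in replicate order) was nearest to the AS libraries (1.64, 1.56 and 1.67 CPM).

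Some of the 52 lower DEGs with at most 3 reads in each AS library are named here. The 3 AS libraries held 2 reads of BTNL2, a butyrophilin-like molecule coded in the MHC region, and the DMSO libraries 21, a ratio of 9.85 with a 95% counting interval of 2.41 to 86.6 (exact, for counting error alone). The call was lost without AS 72 h replicate 2 (log2 FC -2.48, adjusted p = 0.08) and without DMSO 72 h replicate 2 (log2 FC -2.79, adjusted p = 0.0501). MOV10L1, an RNA helicase of the germ line, was named after its values were seen, since its mean is below 1 CPM. It had 3 reads with AS and 45 with DMSO, a ratio of 14.1 (4.52 to 70.8), and its call was lost without replicate 3 (log2 FC -2.82, adjusted p = 0.0816). Among identifiers without a symbol, only those with the same sign in all 3 passages and a mean of at least 1 CPM were considered for naming. Of those, ENSCAFG00000010242 and ENSCAFG00000003904 fell most. They had 2 reads each with AS against 106 and 90 with DMSO, ratios of 49.7 (13.4 to 416) and 42.2 (11.4 to 354). Below that mean, ENSCAFG00000002525 had a log2 FC of -6.44.

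PLEC codes for plectin, which links intermediate filaments to actin and to adhesion sites. It had 1178, 1245 and 1233 CPM with AS and 476, 369.7 and 517 CPM with DMSO, so that the 3 AS libraries lay close together well above the DMSO libraries (log2 FC 1.43 ± 0.18 SE, adjusted p = 6.94e-06). GOLM1, a Golgi membrane protein, was at 60.3, 60.0 and 58.1 CPM and 31.3, 25.9 and 28.7 CPM (log2 FC 1.05 ± 0.12 SE, adjusted p = 1.49e-08). FAM13B, a protein with a GTPase activating domain, was at 73.0, 69.3 and 60.0 CPM and 35.8, 34 and 30.6 CPM (log2 FC 1.01 ± 0.17 SE, adjusted p = 0.000242). Both sat at the fold limit: without DMSO 72 h replicate 2 the log2 FC of GOLM1 was 0.97 and without AS 72 h replicate 1 it was 0.998, while FAM13B was at 0.992 without AS 72 h replicate 1, 0.982 without AS 72 h replicate 2 and 0.994 without DMSO 72 h replicate 3.

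The other higher DEGs with a symbol had low read numbers. GRTP1, a protein with a Rab GTPase activating domain, was at 1.46, 2.13 and 1.83 CPM with AS and 0.600, 0.188 and 0.645 CPM with DMSO (log2 FC 1.86, adjusted p = 0.000147). SRSF6, a splicing factor, was at 8.95, 7.55 and 7.18 CPM and 4.74, 2.54 and 2.26 CPM (log2 FC 1.35, adjusted p = 0.0105), a call lost without passage as a term (log2 FC 1.27, adjusted p = 0.106), and RASGEF1C, a guanine nucleotide exchange factor, at 3.47, 3.12 and 5.50 CPM and 1.40, 1.41 and 2.66 CPM (log2 FC 1.14, adjusted p = 0.000386). RASGEF1C fell under the fold limit without AS 72 h replicate 3 (log2 FC 0.89) and without DMSO 72 h replicate 1 (log2 FC 0.999). SEPTIN3, a cytoskeletal GTPase, was at 1.83, 1.72 and 1.28 CPM and 0.600, 0.752 and 0.968 CPM (log2 FC 1.05, adjusted p = 0.0332), and GRK1, a receptor kinase of the retina, at 1.00, 1.72 and 1.36 CPM and 0.667, 0.658 and 0.645 CPM (log2 FC 1.08, adjusted p = 0.0473). For SEPTIN3 the call was lost without AS 72 h replicate 1 (adjusted p = 0.169), without AS 72 h replicate 2 (0.0887), without DMSO 72 h replicate 1 (0.149) and without DMSO 72 h replicate 2 (0.104). For GRK1 it was lost without AS 72 h replicate 2 (adjusted p = 0.301), without AS 72 h replicate 3 (0.143) and without each of the 3 DMSO libraries (0.208, 0.0843 and 0.0878). The GRK1 call was made in the fit of 35 libraries (adjusted p = 0.0473) and lost with all 36 (log2 FC 1.06, adjusted p = 0.0544). Of the identifiers without a symbol, ENSCAFG00000005691 (15.3, 21.6 and 30.4 CPM with AS and 4.40, 3.67 and 5.81 CPM with DMSO, log2 FC 2.26) and ENSCAFG00000013786 (log2 FC 2.25) were the highest by the naming rule.

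**Figure D2:**
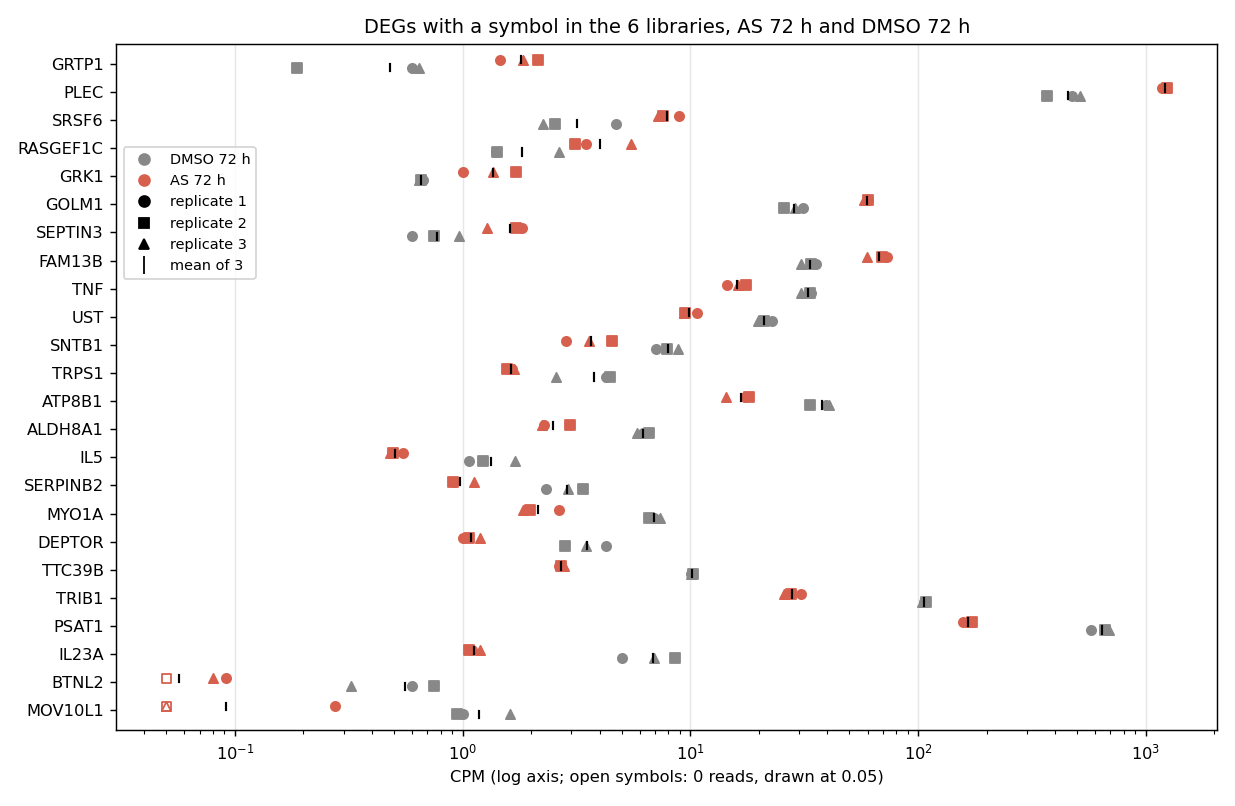
CPM on a log axis of the 24 DEGs with a symbol in the 3 AS (red) and 3 DMSO (grey) libraries at 72 h, with marker shapes for the replicates, black ticks for the mean of 3 and open symbols for 0 reads. The PLEC points of AS lie to the right of those of DMSO and the PSAT1 points to the left, with no overlap in either gene.

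The gene lists below hold the members that had a symbol pair, and list membership was set with earlier results of these data known, so that counts are a description. Of all genes tested 6.80% rose and 6.40% fell, and of the 1068 with a symbol, from which the lists were drawn, 12.2% and 9.93%. Of the 66 list members that rose or fell without being DEGs, 34 passed the adjusted p with each of the 6 libraries left out in turn and 32 did not with at least 1 left out.

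In the list of amino acid synthesis, tRNA charging and ATF4, 2 of 15 members rose and 6 fell, with a median log2 FC of -0.14. Beside PSAT1, the falls covered the mitochondrial one-carbon enzymes SHMT2, which makes glycine from serine (220.1, 264 and 276 CPM with AS, 446, 477 and 499 CPM with DMSO, log2 FC -0.90 ± 0.096 SE, adjusted p = 1.73e-12), and MTHFD1L, which makes formate (log2 FC -0.43, adjusted p = 9.96e-05). The methionyl-tRNA synthetase MARS1 was at 101, 107 and 111 CPM and 157, 158 and 181 CPM (log2 FC -0.63 ± 0.091 SE, adjusted p = 3.22e-08), and the asparaginyl-tRNA synthetase NARS1 (log2 FC -0.35, adjusted p = 0.00313) and the tRNA exporter XPOT (log2 FC -0.27, adjusted p = 0.0245) fell as well. The valyl-tRNA synthetase VARS1 (log2 FC 0.48, adjusted p = 4.90e-05) and the proline synthesis enzyme PYCR3 (log2 FC 0.34, adjusted p = 0.00492) rose. ATF4, the transcription factor of the amino acid response, was at 994, 786 and 817 CPM and 927, 978 and 930.3 CPM, groups that overlap (adjusted p = 0.495). XPOT lost its call in 4 of the 6 fits that leave 1 library out, at the most with an adjusted p of 0.113 without DMSO 72 h replicate 2.

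Among immediate early and growth factor response genes, 1 of 13 rose and 5 fell, and the median log2 FC was -0.61. MYC, a driver of growth and of the cell cycle, had 189.7, 177 and 167 CPM with AS and 269, 278 and 267 CPM with DMSO (log2 FC -0.61 ± 0.096 SE, adjusted p = 6.20e-07), with no overlap. NAB2, a repressor of EGR proteins (log2 FC -0.62, adjusted p = 2.95e-05), and IER3, an early response gene of survival signalling (log2 FC -0.74, adjusted p = 0.00431), fell with TRIB1 and TNF. The one that rose was IRF1, an interferon response factor, at 56.6, 60.3 and 59.4 CPM and 38.5, 40.9 and 43.1 CPM (log2 FC 0.53 ± 0.10 SE, adjusted p = 4.24e-05). EGR1, the first-line response factor downstream of receptors, was at 135.6, 175 and 205 CPM and 277, 239 and 308 CPM. The groups did not overlap in EGR1, which did not pass in the fit of 35 libraries (log2 FC -0.61 ± 0.49 SE, adjusted p = 0.545) but did with the 6 libraries alone (log2 FC -0.70, adjusted p = 1.14e-09), without replicate 1 (log2 FC -0.53, adjusted p = 4.64e-05) and without replicate 3 (log2 FC -0.65, adjusted p = 0.000172). For IER3, without DMSO 72 h replicate 3, IER3 had a log2 FC of -0.57 and an adjusted p of 0.0546.

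Of 9 genes of the MHC and antigen presentation, 2 rose and 4 fell (median log2 FC -0.17). The class II chains DLA-DRA (3671, 3059 and 3398 CPM with AS, 4434, 4745 and 4163 CPM with DMSO, log2 FC -0.40, adjusted p = 0.00625), DLA-DQA1 (log2 FC -0.38, adjusted p = 0.0238) and DLA-DOA (53.5, 46.9 and 47.4 CPM, 79.0, 65.4 and 72.2 CPM, log2 FC -0.55, adjusted p = 6.66e-05) fell with BTNL2. The peptide loading chaperones TAPBP (log2 FC 0.37, adjusted p = 0.00145) and CANX (log2 FC 0.27, adjusted p = 0.0351) rose. DLA-DOA and TAPBP passed with each of the 6 libraries left out. For the others, without AS 72 h replicate 2, DLA-DRA had a log2 FC of -0.31 and an adjusted p of 0.0901, without AS 72 h replicate 2, DLA-DQA1 had a log2 FC of -0.30 and an adjusted p of 0.156, and without AS 72 h replicate 1, CANX had a log2 FC of 0.20 and an adjusted p of 0.225. Class II genes have near copies, so the counts of DLA-DRA and DLA-DQA1 may miss or misplace some reads.

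In the list of the PI3K, AKT, mTOR and FOXO axis, 3 of 15 rose and 1 fell, which was DEPTOR, and the median log2 FC was 0.051. That median is the value of FBXO32, a member with few reads (mean log2 CPM -0.74). TFEB, a transcription factor of lysosome genes that mTOR complex 1 holds in the cytoplasm, rose from 127, 109 and 122 CPM with DMSO to 149.6, 149.7 and 158 CPM with AS (log2 FC 0.35 ± 0.089 SE, adjusted p = 0.00241). INPP5D, the lipid phosphatase SHIP1 (log2 FC 0.28, adjusted p = 0.0401), and PPP2R1B, a scaffold of phosphatase 2A (log2 FC 0.31, adjusted p = 0.0218), also rose, and without DMSO 72 h replicate 2, INPP5D had a log2 FC of 0.18 and an adjusted p of 0.365 and without AS 72 h replicate 3, PPP2R1B had a log2 FC of 0.25 and an adjusted p of 0.164. PIK3R1, a regulatory subunit of PI3K, was at 57.6, 57.7 and 55.5 CPM and 49.0, 47.1 and 48.1 CPM and did not pass (adjusted p = 0.0769), nor did PRR5, a subunit of mTOR complex 2 (adjusted p = 0.198). RPS6, whose protein is a phosphorylation target of this pathway, had overlapping mRNA levels (log2 FC -0.12, adjusted p = 0.51).

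B-cell receptor, NF-kB and NFAT signalling had 4 of 21 members that rose and 2 that fell, with a median log2 FC of 0.060. TNFRSF13C rose in the 3 passages (log2 FC 0.53 ± 0.10 SE, adjusted p = 4.26e-05), as did NCF4, a subunit of the phagocyte oxidase, at 149, 149.8 and 145 CPM and 104, 111 and 104 CPM (log2 FC 0.48 ± 0.095 SE, adjusted p = 6.36e-05). TAGAP, a GTPase activating protein of T cells and other lymphocytes, fell from 37.9, 31.9 and 36.4 CPM with DMSO to 17.5, 21 and 19.3 CPM with AS (log2 FC -0.88 ± 0.20 SE, adjusted p = 0.00316). TNFAIP3, the NF-kB inhibitor A20, fell (log2 FC -0.39, adjusted p = 0.00693), and without DMSO 72 h replicate 3, TNFAIP3 had a log2 FC of -0.31 and an adjusted p of 0.0902. DEF6, an exchange factor of lymphocytes, rose by a log2 FC of 0.27 (adjusted p = 0.0373), a call lost without any 1 of the 6 libraries, at the most with an adjusted p of 0.156 without AS 72 h replicate 3. PTK2B, RAC2 and ITPR3, signalling genes with high read numbers, did not pass (log2 FC 0.012, 0.18 and -0.11, adjusted p = 1, 0.221 and 0.788).

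In the interferon, STAT and cytokine list, 3 of 17 rose and 2 fell (median log2 FC 0.000068). A mean of at least 1 CPM was reached by 10 of the 17. That median is the fitted value of IL2RB, which had 0 reads in the 6 libraries, so it says little about the list. IRF1, the interleukin 4 responsive factor STAT6 (306, 344 and 384 CPM with AS, 264, 229 and 269 CPM with DMSO, log2 FC 0.44, adjusted p = 0.000126) and the cytokine receptor chain CSF2RB (log2 FC 0.43, adjusted p = 0.0386) rose, and IL23A and IL5 fell. IFNGR1, a chain of the interferon gamma receptor, overlapped between the groups (adjusted p = 0.485). For CSF2RB, without AS 72 h replicate 3, CSF2RB had a log2 FC of 0.32 and an adjusted p of 0.302.

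**Figure D3:**
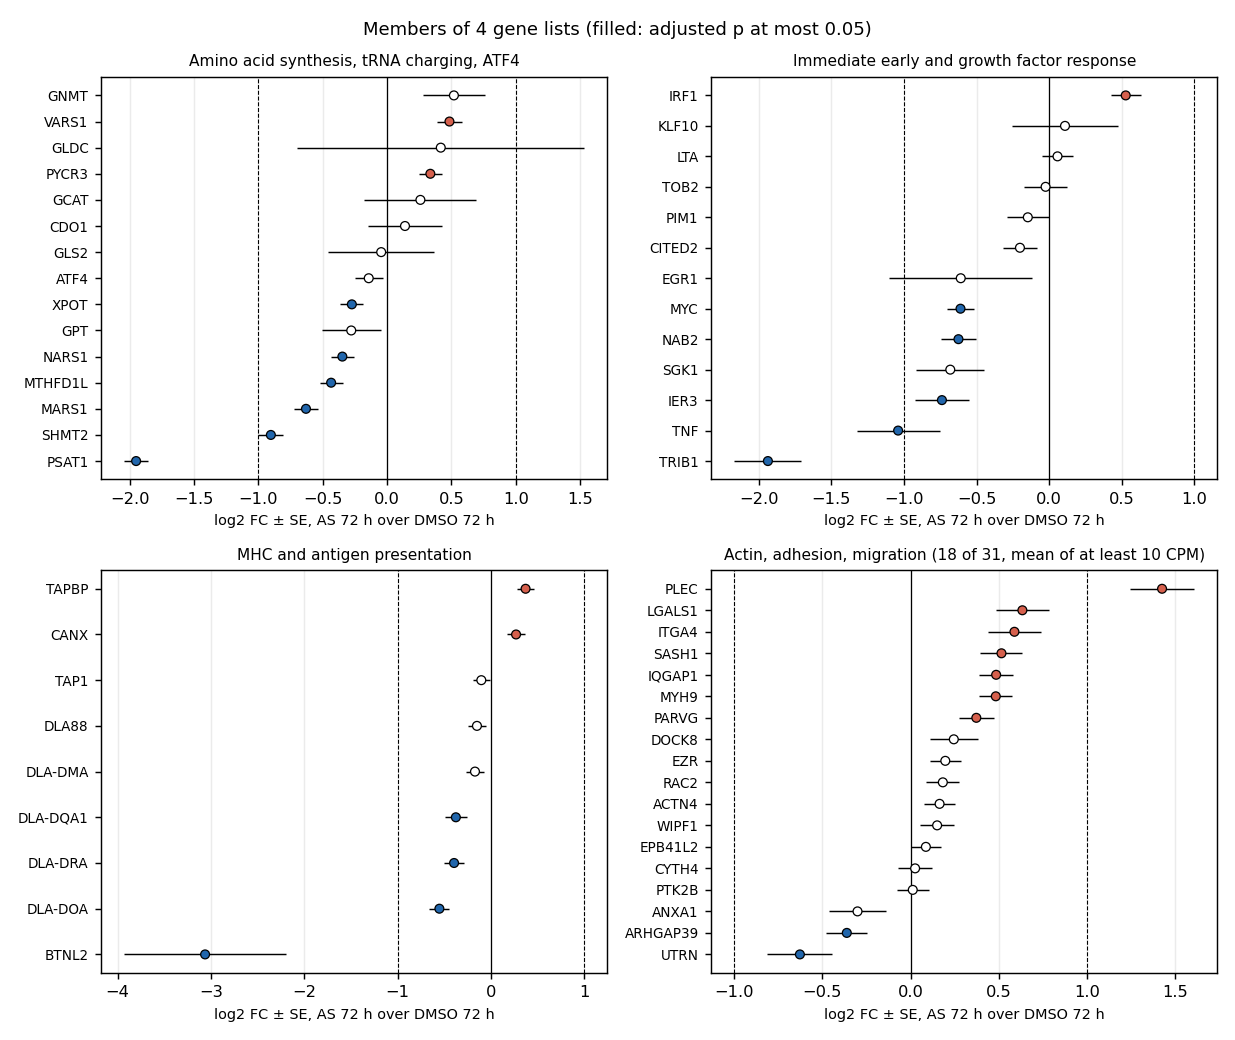
Log2 FC of AS 72 h over DMSO 72 h with its SE for the members of 4 gene lists, with filled points where the adjusted p was at most 0.05 (red higher, blue lower) and dashed lines at 1 and -1. PSAT1, SHMT2 and MARS1 lead the falls of the amino acid panel, TRIB1 and TNF those of the immediate early panel, and PLEC the rises of the actin panel, which leaves out members under a mean of 10 CPM.

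Among actin scaffold, adhesion and migration genes, 7 of 31 rose and 3 fell, and the median log2 FC was 0.13. A mean of at least 1 CPM was reached by 26 of the 31. That median is the value of AVIL, a member with few reads (mean log2 CPM -1.97). The risers with PLEC were MYH9, the heavy chain of non-muscle myosin (1512, 1469.9 and 1468 CPM with AS, 1154, 919 and 1116 CPM with DMSO, log2 FC 0.48, adjusted p = 4.90e-05), IQGAP1, an actin and calmodulin scaffold (619.6, 623 and 618 CPM, 493, 387 and 452 CPM, log2 FC 0.48, adjusted p = 6.48e-05), the lectin LGALS1 (log2 FC 0.63, adjusted p = 0.00413), the integrin chain ITGA4 (log2 FC 0.59, adjusted p = 0.00792), the scaffold SASH1 (log2 FC 0.51, adjusted p = 0.000764) and PARVG, a parvin of blood cells (log2 FC 0.37, adjusted p = 0.00353). UTRN, a relative of dystrophin (log2 FC -0.63, adjusted p = 0.0249), and the GTPase activating proteins ARHGAP18 (log2 FC -0.59, adjusted p = 0.00746) and ARHGAP39 (log2 FC -0.36, adjusted p = 0.0224) fell. EZR, a membrane linker of actin, did not pass (log2 FC 0.20, adjusted p = 0.152). For 4 of these, without DMSO 72 h replicate 2, ITGA4 had a log2 FC of 0.53 and an adjusted p of 0.0521, without DMSO 72 h replicate 1, UTRN had a log2 FC of -0.56 and an adjusted p of 0.11, without AS 72 h replicate 3, ARHGAP18 had a log2 FC of -0.46 and an adjusted p of 0.13, and without AS 72 h replicate 1, ARHGAP39 had a log2 FC of -0.30 and an adjusted p of 0.133.

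Lysosome, autophagy and endosome genes moved both ways, with 5 of 28 that rose and 6 that fell (median log2 FC 0.024). The endosomal membrane gene SLC66A2 rose (log2 FC 0.46, adjusted p = 0.000256), with TFEB, the proton pump subunit ATP6V1C1 and the hydrolase ARSB (log2 FC 0.33 and 0.43). The hydrolases ARSA (28.4, 28.7 and 32.3 CPM with AS, 41.2, 42.6 and 46.3 CPM with DMSO, log2 FC -0.54, adjusted p = 7.42e-05) and FUCA2 (log2 FC -0.54, adjusted p = 5.64e-05) fell, with STX7, IGF2R, ATP6V1F and STX11 (log2 FC -0.34, -0.32, -0.32 and -0.27). SLC66A2, TFEB, ARSA and FUCA2 passed with each library left out. The other genes named here lost the call with at least 1 left out, at the most ATP6V1C1 (without AS 72 h replicate 1, adjusted p = 0.119), ARSB (without AS 72 h replicate 2, adjusted p = 0.117), STX7 (without DMSO 72 h replicate 2, adjusted p = 0.0747), IGF2R (without DMSO 72 h replicate 1, adjusted p = 0.123), ATP6V1F (without DMSO 72 h replicate 2, adjusted p = 0.271) and STX11 (without AS 72 h replicate 1, adjusted p = 0.171). The tetraspanin CD63 and the sorting factor VPS28 overlapped between the groups (log2 FC 0.031 and 0.13), and the autophagy receptor SQSTM1 did not pass (adjusted p = 0.0802).

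Most genes of the cell cycle did not pass, 32 of 37, against 2 that rose and 3 that fell (median log2 FC 0.010). CDC25C, a phosphatase of mitotic entry, fell from 56.4, 57.9 and 50.7 CPM to 45.9, 37.5 and 34.7 CPM (log2 FC -0.48, adjusted p = 0.000416). MDM2, the ubiquitin ligase of p53 (log2 FC -0.39, adjusted p = 0.000606), and CDKN2B, an inhibitor of CDK4 and CDK6 (log2 FC -0.50, adjusted p = 0.0213), fell, and the lamin LMNB1 (log2 FC 0.25, adjusted p = 0.0409) and the histone chaperone ASF1A (log2 FC 0.34, adjusted p = 0.0231) rose. The kinesin KIFC1, the cohesin subunit RAD21 and the cyclin CCND3 had log2 FC values of 0.059, 0.027 and 0.20 and did not pass. With 1 library left out, without AS 72 h replicate 2, CDKN2B had a log2 FC of -0.39 and an adjusted p of 0.131, without AS 72 h replicate 3, LMNB1 had a log2 FC of 0.24 and an adjusted p of 0.143, and without AS 72 h replicate 3, ASF1A had a log2 FC of 0.26 and an adjusted p of 0.221.

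Of 14 genes of apoptosis and survival, 2 rose and 5 fell (median log2 FC -0.099). The pore-forming protein GSDMD rose (99.2, 98.4 and 97.0 CPM with AS, 68.4, 78.7 and 65.9 CPM with DMSO, log2 FC 0.47, adjusted p = 0.000296), and the BCL2 family member BAK1 as well (log2 FC 0.29, adjusted p = 0.0299). The falls were IER3, MYC, MDM2, TNFAIP3 and MYB, a transcription factor of blood progenitors (log2 FC -0.41, adjusted p = 0.0039). BCL2, an inhibitor of apoptosis, was at 27.3, 28.7 and 27.8 CPM and 30.4, 28.8 and 29.9 CPM and did not pass (log2 FC -0.085, adjusted p = 0.74), nor did BAG6 (log2 FC 0.035). DAPK1, a death-associated kinase, did not pass in the fit of 35 libraries (log2 FC 0.44, adjusted p = 0.153) but did with the 6 libraries alone (adjusted p = 0.000969), without replicate 1 (adjusted p = 1e-05) and without replicate 3 (adjusted p = 0.028). With 1 library left out, without AS 72 h replicate 2, BAK1 had a log2 FC of 0.23 and an adjusted p of 0.184 and without AS 72 h replicate 2, MYB had a log2 FC of -0.34 and an adjusted p of 0.0612, and the values for IER3 and TNFAIP3 stand above. Of the 6 genes with a symbol pair that the study discusses, DSE, an epimerase of dermatan chains, rose (290.3, 306 and 309 CPM, 223, 219 and 206 CPM, log2 FC 0.48, adjusted p = 1.65e-05), MYC and MYB fell, and NHSL1, PIK3R1 and BCL2 did not pass, NHSL1 with a log2 FC of 0.025 ± 0.28 (SE).

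Ribosome and translation genes held 1 of 16 that rose and 1 that fell (median log2 FC -0.061). EIF4G2, an initiation factor for cap-independent translation, was at 1572, 1624 and 1649 CPM with AS and 1004, 1034 and 982 CPM with DMSO, a narrow and separate range in each group (log2 FC 0.68 ± 0.091 SE, adjusted p = 2.86e-09). EIF3H fell (log2 FC -0.27, adjusted p = 0.0242), and without AS 72 h replicate 1, EIF3H had a log2 FC of -0.22 and an adjusted p of 0.132. PABPC1, RPL8, RPS12 and RPL3 did not pass (log2 FC 0.027, -0.13, 0.037 and -0.18). Of 23 genes of mitochondrial energy metabolism, 2 rose and 2 fell (median log2 FC -0.034): the copper chaperone SCO2 (log2 FC 0.64, adjusted p = 4.30e-05) and the malic enzyme ME2 (log2 FC 0.41, adjusted p = 0.000287) rose, and TFB1M and SLC25A17 fell (log2 FC -0.64 and -0.36). The falls were lost with 1 library left out, TFB1M (without DMSO 72 h replicate 3, adjusted p = 0.109) and SLC25A17 (without AS 72 h replicate 1, adjusted p = 0.0927). ATP5F1B, HSPA9 and CS did not pass (log2 FC 0.15, -0.034 and -0.14).

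Of 14 genes of cholesterol synthesis and lipid metabolism, 0 rose and 4 fell (median log2 FC -0.11). ACAT2, a thiolase that feeds sterol synthesis, fell from 489, 551 and 514 CPM to 429.7, 353 and 394 CPM (log2 FC -0.41, adjusted p = 0.000534), with the lipid carrier STARD6 (log2 FC -0.84, adjusted p = 0.000542), AGPAT4 and CPT1B (log2 FC -0.43 and -0.30). The sterol synthesis enzyme SQLE, the sterol regulator SREBF2 and HSD17B4 did not pass (log2 FC -0.088, -0.047 and 0.19). With 1 library left out, without AS 72 h replicate 3, AGPAT4 had a log2 FC of -0.40 and an adjusted p of 0.11 and without AS 72 h replicate 3, CPT1B had a log2 FC of -0.23 and an adjusted p of 0.256. Of 13 genes of hypoxia, glycolysis and oxidative stress, 2 rose and 0 fell (median log2 FC 0.12). The thioredoxin reductase TXNRD1 was at 311, 314 and 326 CPM and 219.9, 241 and 228 CPM (log2 FC 0.47 ± 0.086 SE, adjusted p = 1.48e-05), and HIF1AN, the asparagine hydroxylase of HIF, rose (log2 FC 0.45, adjusted p = 0.00838), while without AS 72 h replicate 2, HIF1AN had a log2 FC of 0.36 and an adjusted p of 0.1. SOD2 and TXN2 overlapped between the groups (log2 FC 0.12 and -0.12).

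Whether AS had the same effect at earlier times was tested in the same fit. At 24 h 37 genes were DEGs against DMSO (0.198%), and at 48 h 114 (0.611%). These comparisons share no library with that at 72 h. Of the 409 DEGs of 72 h, 11 were DEGs at 24 h (2.69%, which is 29.7% of those of 24 h) and 51 at 48 h (12.5%, which is 44.7% of those of 48 h), each in the same direction. The median effect on the 133 higher DEGs was a log2 FC of 0.24 at 24 h and 0.36 at 48 h, and on the 276 lower DEGs -0.073 and -0.65. The sign was that of 72 h for 101 and 161 of them at 24 h and for 101 and 234 at 48 h. By both limits, the effect at 72 h differed from that at 24 h for 325 genes (1.74%), 82 with a higher and 243 with a lower log2 FC at 72 h. From that at 48 h it differed by both limits for 117 (0.627%), 60 and 57. Without replicate 2, the count against 48 h was 76. According to the sample sheet of the study, the 72 h cells of replicate 3 were harvested later than 1 time course with its earlier cells would give, which bears on values across times.

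PSAT1 was at 211 ± 5.98, 233 ± 8.57 and 642 ± 59.1 CPM (SD, n = 3) with DMSO at 24, 48 and 72 h, and at 166 ± 12.3, 181 ± 9.45 and 166 ± 7.94 CPM with AS. It was thus lower with AS at each time, by a log2 FC of -0.35 at 24 h (adjusted p = 0.0167) and -0.37 at 48 h (adjusted p = 0.00449), and the DMSO level was highest at 72 h. SHMT2 (DMSO 317 ± 3.68, 343 ± 24.5 and 474 ± 26.4 CPM, AS 261 ± 8.26, 282 ± 6.47 and 253 ± 29.4 CPM) and TRIB1 (DMSO 28.3 ± 2.24, 42.4 ± 9.28 and 106 ± 2.02 CPM, AS 23.6 ± 2.22, 27.3 ± 10.5 and 27.9 ± 2.43 CPM) had the same order at 72 h. MARS1 was -0.45 at 24 h and -0.38 at 48 h on the log2 FC scale (adjusted p = 0.000606 and 0.00307), and -0.63 at 72 h. The effect at 72 h did not pass the test of a difference from either time (-0.18 ± 0.13 and -0.25 ± 0.13 SE, adjusted p = 0.522 and 0.372).

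MYC with DMSO was at 136.1 ± 17.4, 184 ± 17.5 and 271 ± 5.86 CPM and with AS at 152 ± 14.4, 173 ± 15.1 and 178 ± 11.5 CPM. Its AS effect did not pass at 24 h (log2 FC 0.16, adjusted p = 0.552) or 48 h (log2 FC -0.083, adjusted p = 0.781). The difference between 72 h and 24 h passed the adjusted p but not the fold limit (log2 FC -0.77, adjusted p = 3.34e-05). PLEC was at 887 ± 53.1, 849 ± 123 and 454 ± 76.0 CPM with DMSO and at 993 ± 74.5, 1083 ± 132 and 1219 ± 35.9 CPM with AS. GOLM1 was higher with AS at each time, by a log2 FC of 0.70 at 24 h (adjusted p = 0.000203), 0.61 at 48 h (adjusted p = 0.000675) and 1.05 at 72 h. RASGEF1C was also higher at each time, with 3.50 ± 0.334, 2.93 ± 0.316 and 4.03 ± 1.29 CPM with AS against 1.57 ± 0.657, 1.55 ± 0.0897 and 1.82 ± 0.724 CPM (log2 FC 1.13 at 24 h, adjusted p = 0.0045). SERPINB2 with AS was at 2.23 ± 0.304, 1.51 ± 0.262 and 0.978 ± 0.120 CPM, against 3.24 ± 0.344, 2.78 ± 0.340 and 2.87 ± 0.526 CPM with DMSO.

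**Figure D4:**
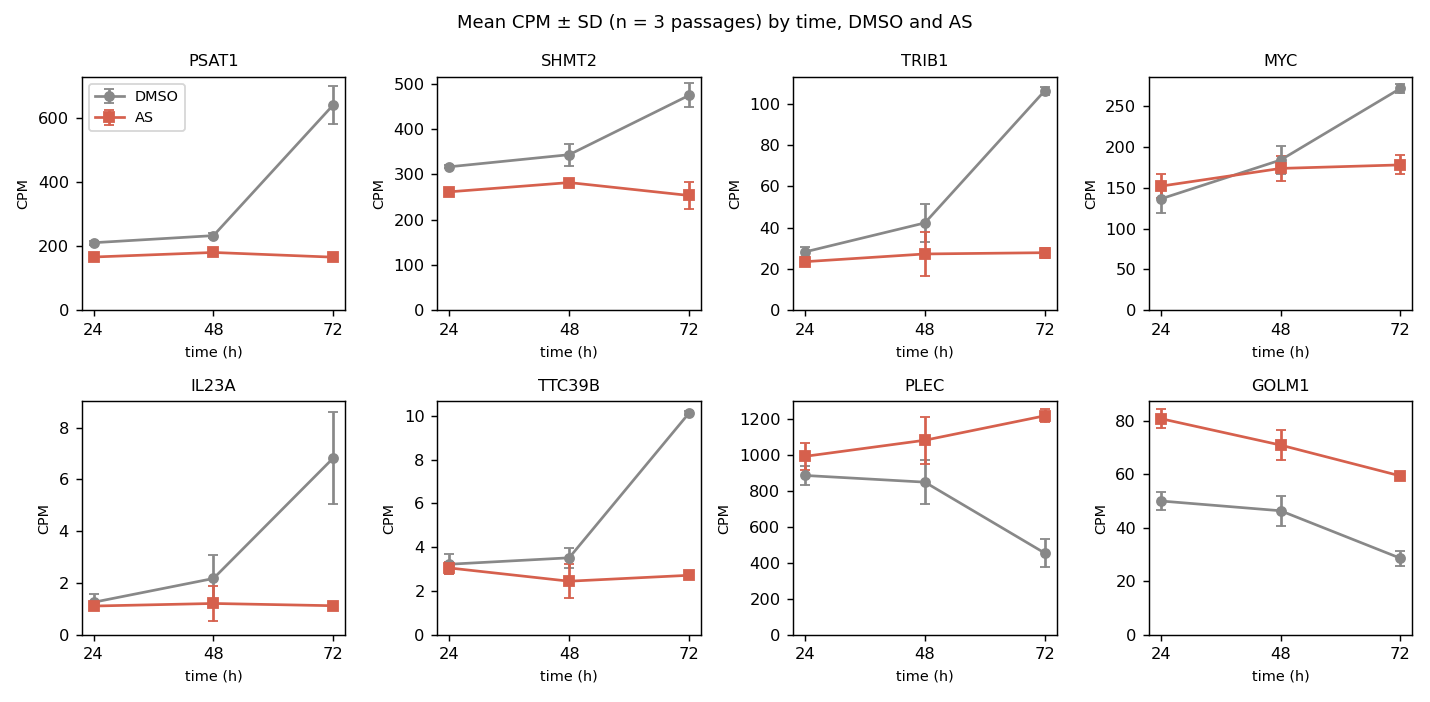
Mean CPM with its SD over 3 passages at 24, 48 and 72 h with DMSO (grey) and AS (red) for 8 genes that fell or rose at 72 h. The DMSO line moves away from the AS line between 48 h and 72 h in PSAT1, TRIB1, MYC, IL23A, TTC39B and PLEC, while GOLM1 is apart at each time.

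The DMSO cultures themselves changed with time, with 1076 DEGs between DMSO 72 h and DMSO 24 h (5.76%), 827 higher at 72 h and 249 lower. By both limits, AS 72 h differed from DMSO 24 h in 279 genes (1.49%), 238 higher and 41 lower. From DMSO 48 h it differed by both limits in 58 (0.311%), 36 higher and 22 lower. The Euclidean distance of the AS 72 h libraries in log2 CPM was 46.4 on average (44.4 to 49.7) to DMSO 72 h of the same passage, 37.0 (32.8 to 42.6) to DMSO 48 h, 43.7 (42.1 to 45.9) to DMSO 24 h and 36 (33.8 to 39.7) to AS 48 h, against 29.6 (25.1 to 32.3) between AS 72 h libraries of different passages. AS 72 h was nearer to DMSO 48 h than to DMSO 72 h in each passage, by the least in replicate 1 (42.6 and 44.9). The 278 DEGs that reached a mean of 1 CPM show the same levels side by side, with the caution that the 72 h values chose them. Relative to DMSO 24 h of the same passage, the median of the 85 higher DEGs was -1.05 ± 0.070 (log2, SD, n = 3) in DMSO 72 h and 0.28 ± 0.059 in AS 72 h, and that of the 193 lower DEGs was 1.63 ± 0.0066 in DMSO 72 h and 0.24 ± 0.018 in AS 72 h. AS 48 h lay at 0.23 ± 0.070 and -0.15 ± 0.041, and DMSO 48 h at -0.10 ± 0.14 and 0.46 ± 0.096.

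Single genes differed in this respect, here read by the adjusted p with no fold limit. Against DMSO 48 h, AS 72 h was lower in PSAT1 (log2 FC -0.49, adjusted p = 0.0001), SHMT2 (log2 FC -0.44, adjusted p = 0.00207), MARS1 (log2 FC -0.47, adjusted p = 0.000261), SERPINB2 (log2 FC -1.49, adjusted p = 0.000369) and ATP8B1 (log2 FC -0.76, adjusted p = 0.0309), and higher in RASGEF1C (log2 FC 1.37, adjusted p = 0.000178). TRIB1, IL23A, TTC39B, MYC and PLEC did not pass against DMSO 48 h (log2 FC -0.59, -0.95, -0.37, -0.048 and 0.52, adjusted p = 0.231, 0.0734, 0.523, 0.954 and 0.138). For comparison, DMSO 72 h over DMSO 24 h had a log2 FC of 1.60 in PSAT1, 1.92 in TRIB1, 2.38 in IL23A and -0.97 in PLEC. RASGEF1C and SERPINB2 had 0.18 and -0.18 there, and neither passed (adjusted p = 0.748 and 0.635).

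**Figure D5:**
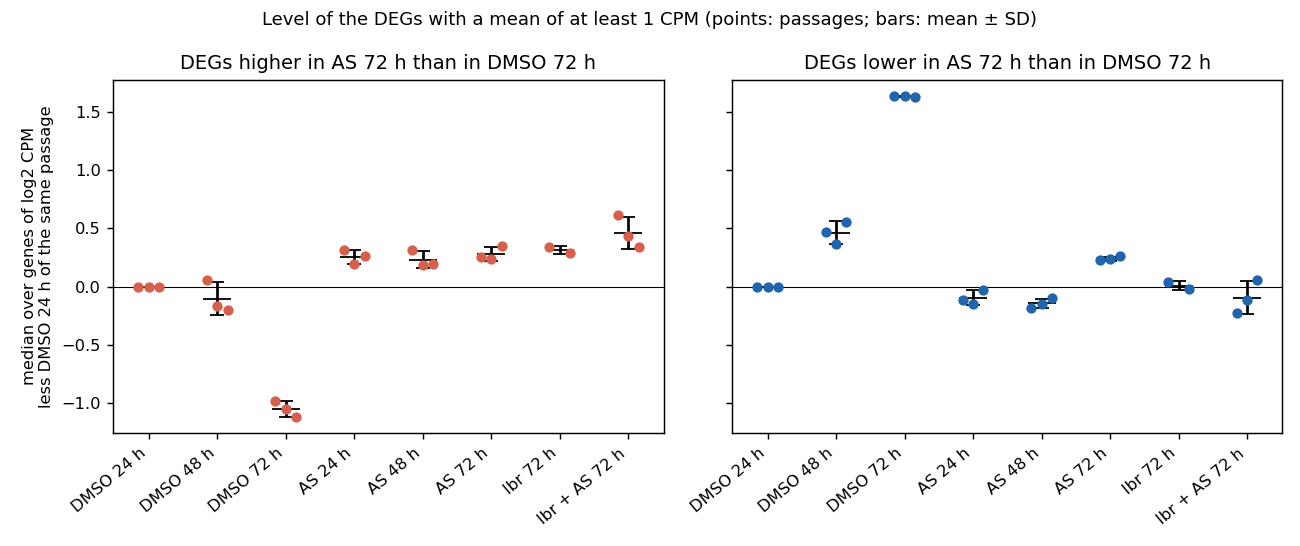
Median over the DEGs that reached a mean of 1 CPM of log2 CPM less that of DMSO 24 h of the same passage, for the 85 higher (left) and 193 lower DEGs (right), with a point per passage and bars for mean and SD. The DMSO 72 h points stand apart from the other groups on both sides, at -1.05 and 1.63 on average, and the 72 h values of AS and DMSO chose the genes.

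Set beside the other treatments at 72 h, AS differed from Ibr by both limits in 78 genes (0.418%), 51 higher and 27 lower with AS. With the Ibr library that the study left out, the count was 48. Ibr + AS differed from AS by both limits in 601 genes (3.22%), 261 higher and 340 lower with the combination. Ibr 72 h holds 2 libraries, since the study left out the third. Median log2 FC values against DMSO 72 h, whose libraries all 3 comparisons share, were 1.43, 1.52 and 1.68 over the 133 higher DEGs with AS, Ibr and Ibr + AS, and -1.52, -1.74 and -1.83 over the 276 lower ones. In the direct comparison of AS with Ibr the medians were -0.036 and 0.059. PSAT1 was at 182 ± 3.14 CPM with Ibr (SD, n = 2), TRIB1 at 27.3 ± 0.0483 CPM and TTC39B at 2.58 ± 0.0582 CPM, and for none of these did AS differ from Ibr (adjusted p = 0.797, 1 and 1). The log2 FC of AS over Ibr was -0.12 ± 0.10 (SE) in PSAT1, 0.10 ± 0.27 in TRIB1 and 0.092 ± 0.26 in TTC39B. GOLM1 was lower with AS than with Ibr by the adjusted p alone (log2 FC -0.58 ± 0.13 SE, adjusted p = 0.00777).

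With the combination, 4 DEGs with a symbol were past both limits against AS alone. ATP8B1 was lower still, at 6.05 ± 1.46 CPM against 16.6 ± 2.02 CPM with AS (log2 FC -1.46 ± 0.23 SE, adjusted p = 5.54e-05). GOLM1 (129.9 ± 17.9 CPM against 59.5 ± 1.22 CPM, log2 FC 1.12 ± 0.12 SE, adjusted p = 3.55e-10) and RASGEF1C (9.17 ± 3.02 CPM against 4.03 ± 1.29 CPM, log2 FC 1.17 ± 0.20 SE, adjusted p = 2.83e-06) were higher still. DEPTOR, lower with AS than with DMSO, was higher with the combination than with AS, at 4.50 ± 1.71 CPM against 1.09 ± 0.0975 CPM (log2 FC 2.01 ± 0.29 SE, adjusted p = 1.77e-08). By the adjusted p alone, MYC was also higher with the combination (269.5 ± 11.7 CPM, log2 FC 0.60, adjusted p = 5.35e-07). PSAT1 was at 166 ± 8.07 CPM in the combination and 166 ± 7.94 CPM with AS.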

How the data were processed

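Poly-A RNA of CLBL-1 cells was sequenced as single-end reads. The authors mapped the reads to CanFam3.1 with STAR 2.7.5a and deposited raw read counts per Ensembl gene; which strand column was kept is not stated, so overlapping and antisense genes cannot be told apart. Tests used edgeR 4.0.16 (limma 3.58.1, R 4.3.3). The fit held 35 libraries, all but Ibr 72 h replicate 3, which the study left out, and a gene needed a sum of 2 or more reads in them, which 18670 of 30424 genes reached. TMM factors, robust quasi-likelihood fits with group and passage as terms, and Benjamini-Hochberg adjustment over all genes tested were used. CPM use TMM library sizes, and log2 CPM a prior count of 1. Levels are not scaled by gene length and are compared within a gene.

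Passage labels pair the libraries. After removal of group means, AS and DMSO libraries at 72 h correlated with r = 0.00041, -0.24 and 0.20 within replicates 1, 2 and 3, and with r between -0.27 and 0.21 across replicates (10783 genes). Passage stayed a term, as in the study. The header's sample sheet numbers place both libraries of each 72 h pair in the same sequencing run, which is an inference. In replicate 2 they place AS 24 h, DMSO 24 h and DMSO 48 h in another run than AS 48 h and the 72 h pair. This bears on its AS effect at 48 h and on its values across times. With a sequencing run term, the AS effect at 72 h differed by both limits from that at 48 h for 97 genes, against 117 without it. DMSO 24 h replicate 3 carries the passage of replicate 2 in its title and that of replicate 3 in its passage field, and the field was used. Read counts were compared between the libraries within AS 72 h and within DMSO 72 h, and each library was counted as 1 sample.

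Alternatives were DESeq2 1.42.0, RLE factors, filterByExpr, no filter, all 36 libraries, the 6 libraries alone, no replicate block, glmTreat, a sequencing run term and leaving out each replicate or library. Members, gene lists and rules were chosen with earlier results of these data known. Named genes are the DEGs with a symbol, the same sign in 3 passages and a mean of at least 1 CPM. Up to 4 members of each list with the highest CPM beside its DEGs and the genes the study discusses were also named. By the same limits on sign and mean, the identifiers without a symbol that changed most were added. Other list members past the adjusted p, and LTA, AVIL and FBXO32, were named after their values were seen. A few list members are counted but not reported here by name. The reference annotation holds 0 Ensembl identifiers and another assembly, so symbols came from the study's tables (1068 genes), and no coordinates or sequences are given. Columns of other series: 0.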

Additional observations from a re-analysis of the deposited data

Results flagged for a closer look

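For 16 named genes the AS effect at 72 h differed from that at 24 h past both limits (edgeR's quasi-likelihood test of the difference, adjusted over 18670 genes), and for 9 it differed from that at 48 h. These genes were named for their change at 72 h, so the list is no sample of all genes. In PSAT1 the log2 FC of AS was -0.35 at 24 h, -0.37 at 48 h and -1.95 at 72 h, a difference of -1.61 to 24 h (adjusted p = 3.29e-19) and -1.58 to 48 h (adjusted p = 8.70e-19). The further falls were larger at 72 h than at 24 h by -1.67 in TRIB1, -2.37 in IL23A, -1.81 in TTC39B, -2.01 in MYO1A, -1.62 in DEPTOR, -1.22 in ALDH8A1, -1.02 in UST and -1.20 in STARD6 on the log2 scale. Against 48 h the differences were -1.29 in TRIB1, -1.75 in IL23A, -1.36 in TTC39B and -1.35 in MYO1A.

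Among genes that were higher with AS, PLEC differed by 1.26 from 24 h (adjusted p = 0.00251) and by 1.07 from 48 h (adjusted p = 0.0208), GRTP1 by 1.54 and 2.04, ENSCAFG00000005691 by 1.76 and 1.66, and against 24 h alone SEPTIN3 by 1.93 and ENSCAFG00000013786 by 2.25. BTNL2 differed by -5.17 from 24 h and ENSCAFG00000010242 by -4.63 from 24 h and -4.30 from 48 h, both from few reads, so the fitted values depend on the prior count. Over the alternatives beside glmTreat that gave a value, PSAT1, IL23A, PLEC, MYO1A, TTC39B, ENSCAFG00000005691 and ENSCAFG00000013786 passed in 16 of 16 against 24 h, while GRTP1 passed in 5 and ALDH8A1 in 8. Against 48 h, PSAT1 passed in 16 of 16, IL23A, GRTP1 and TTC39B in 15, PLEC and MYO1A in 12 and TRIB1 in 8.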

How the results depend on the processing

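Asking for a log2 FC above 1 with glmTreat in place of both limits left 50 DEGs at 72 h, 11 higher and 39 lower. It left 4 for the difference to 24 h, 3 for that to 48 h, 7 for AS against Ibr, 125 for Ibr + AS against AS, 38 and 2 for AS 72 h against DMSO 24 h and 48 h, and 252 for DMSO 72 h against 24 h. With all 36 libraries AS differed from Ibr by both limits in 48 genes. With replicates or libraries left out, the DEGs numbered 318 to 427, and the other counts lay between 236 and 413 for the difference to 24 h, 76 (without replicate 2) and 146 for that to 48 h, 54 and 79 for AS against Ibr, 419 and 680 for Ibr + AS against AS, 243 and 283 and 45 and 70 against DMSO 24 h and 48 h, and 906 and 1086 for DMSO over time. The other alternatives kept each count within 1.5 times. Of the 409 DEGs, DESeq2 called 336 again, the fit without the replicate block 388 and fits with 1 passage or library left out 268 to 334. Without the replicate block 397 DEGs were called in all. PSAT1, TRIB1, IL23A, TTC39B and ENSCAFG00000003904, ENSCAFG00000005691 and ENSCAFG00000010242 passed in each of 18 alternatives, GRK1 in 2 and FAM13B in 8. DESeq2 gave no adjusted p for BTNL2 and MOV10L1. SRSF6 lost its call without the replicate block (log2 FC 1.27, adjusted p = 0.106).

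Calls were gained in 6 genes, EGR1 and DAPK1 as given above, PIK3R1 with DESeq2 (adjusted p = 0.0282) and filterByExpr (adjusted p = 0.026), EZR and CS with DESeq2 (adjusted p = 0.0393 and 0.0385) and ITPR3 without replicate 2 (adjusted p = 0.0407). Signs turned in genes that did not pass. PTK2B was at -0.00853 with DESeq2, -0.00828 with RLE factors, -0.00911 with no filter, -0.00477 with 36 libraries and -0.00341 with 6. Over all alternatives, log2 FC values ranged from -0.056 to 0.15 in BAG6, -0.041 to 0.16 in CD63, -0.10 to 0.035 in HSPA9, -0.33 to 0.10 in ITPR3, -0.023 to 0.12 in KIFC1, -0.59 to 0.38 in NHSL1, -0.031 to 0.072 in PABPC1, -0.11 to 0.080 in PTK2B, -0.079 to 0.22 in RPS12, -0.23 to 0.013 in SQLE and -0.11 to 0.025 in SREBF2. At these depths 3 reads are 0.206 to 0.282 CPM, so folds of genes near that level are poorly fixed.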
